A study of Saccharomyces cerevisiae with 6 samples.

Results

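The filamentous growth MAP kinase pathway of the yeast Saccharomyces cerevisiae was examined through 10 genes, MSB2, SHO1, HKR1, OPY2, STE20, STE50, STE11, STE7, KSS1 and FUS3. The genes were taken from a list of pathway components, and each was read from the brightest probe set that the platform table pairs with that gene alone. All 10 were found among the 5656 genes that have such a probe set. Cells came from 2 groups, the air-liquid interfacial biofilm (labelled floaters) and the cells that had settled under it (labelled sinkers, and called the bottom layer here), with 3 arrays each. Both groups were the same strain, 3238-32, whose genotype the labels give as MATa leu2∆1 lys2-801 ura3-52, so every array shares these alleles. After 24 h at 30°C in YEPD, washed cells were put at a 10-fold dilution into Flor medium (100 ml), which is YNB with 4% ethanol, leucine, histidine and uracil. They then stood in 250 ml beakers for 48 h at 27°C before the film was aspirated, and the settled cells after it. The beakers were in triplicate, but no label says which beaker gave which array, so p-values cover only the spread among these arrays, which may be technical.

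In this pathway the signalling mucin Msb2 and the membrane adaptor Sho1 act above the GTPase Cdc42, which activates the p21-activated kinase Ste20. Ste20 phosphorylates Ste11, held at the membrane through Ste50 and Opy2, and the signal passes through the MAP kinase kinase Ste7 to the MAP kinase Kss1, which acts on the transcription factors Ste12 and Tec1. Much of the cascade is shared with the pheromone pathway, where Fus3 is the main MAP kinase, and with the osmosensing HOG pathway, where the mucin Hkr1 also acts. In flor yeasts, film formation depends on the adhesin gene FLO11, a known target of this pathway.

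The arrays had been brought to a common level before deposit, with means of 500.3 to 500.5 signal units once the lowest and highest 2% of probe sets are set aside, and medians of 128 to 151. Bottom layer replicate 3 stood apart: its spiked BioB controls averaged 714 units, against 217 to 286 on the other 5 arrays, and its brightest unspiked control probe set reached 44.8 units, against 16.3 to 21.9 elsewhere. The ACT1 3' to 5' signal ratio was 1.54 to 2.04 in the biofilm, against 1.80 to 3.84 in the bottom layer, and the mean of the 18S control probe sets was 893 to 1217 units in the biofilm, against 3842 to 5759 units in the bottom layer. The part of these differences in the results was not tested. Stationary phase markers also moved with the groups. Of 10 such genes tested, 1 was higher in the biofilm (10%), 8 were lower (80%) and 1 did not pass. For all genes tested the shares were 38% higher and 24.4% lower. The 1 higher was SNZ1 (log2 fold change 0.43), and the 1 that did not pass was SNO1 (-0.036). The summed signal of the 10 was 17794 to 18616 units in the biofilm, against 52562 to 76714 in the bottom layer, and none was at 0. In the bottom layer SPG4 and HSP12 were the brightest of them, at means of 18637 and 16790 units, and carry much of that sum. SPG1, a stationary phase gene, was at 49.1 ± 4.40 units in the biofilm, against 4017 ± 262 in the bottom layer, with SSA3 and HSP26, both heat shock genes, at log2 fold changes of -3.41 and -4.49. The part of these markers in the pathway results was not tested, and in such bulk samples fewer cells of a kind and less RNA per cell cannot be told apart.

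The mating type genes went against the label. A MATa haploid is known to express a-specific genes and not alpha-specific ones, and several pathway genes belong to the mating system. Of 7 a-specific genes, none was above the brightest unspiked control on all 6 arrays. STE2, the receptor for alpha-factor, gave 0.862 to 3.89 units in the biofilm, against 3.58 to 9.88 in the bottom layer, below that control on all 6 arrays. All 4 alpha-specific genes were above it on all 6 arrays. MF(ALPHA)1, which encodes alpha-factor, gave 3271 ± 281 units in the biofilm, against 1509 ± 438 in the bottom layer (mean ± SD, n = 3 in each group), and STE3, the receptor for a-factor, gave 1907 ± 266 in the biofilm, against 1121 ± 56.7 in the bottom layer. SAG1, the alpha-agglutinin, was at 376 ± 83.9 units in the biofilm, against 1704 ± 433 in the bottom layer, and MF(ALPHA)2 at 152 ± 7.08 in the biofilm, against 263 ± 52.3 in the bottom layer. The genes for a-factor, MFA1 and MFA2, were clearly above it on some arrays. MFA1 was near background in the biofilm, at 13.9, 18.2 and 6.87 units, against 116, 123 and 108 in the bottom layer. MFA2 gave 8.13, 7.82 and 64.2 units in the biofilm, against 59.4, 113 and 19.1 in the bottom layer, well above that control on biofilm replicate 3 and bottom layer replicates 1 and 2. Summed over the lists, a-specific signal was 91.5 to 121 units in the biofilm, against 218 to 295 in the bottom layer, and alpha-specific signal was 5228 to 6357 units in the biofilm, against 3697 to 5526 in the bottom layer. Of 9 haploid-specific genes, 8 were above the control on all arrays. HO, among these 8, was at 448 ± 92.4 units in the biofilm, against 55.6 ± 11.8 in the bottom layer. The strain is therefore called here the strain labelled MATa.

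**Figure D1:**
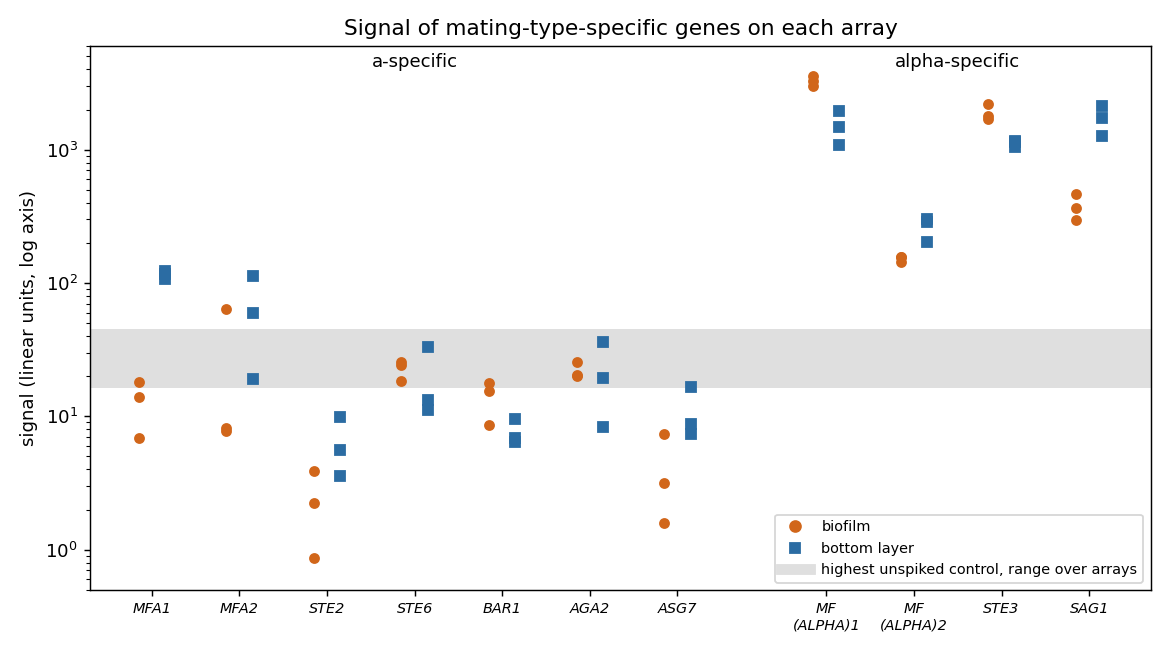
Signal of 7 a-specific and 4 alpha-specific genes on the 3 biofilm arrays (circles) and the 3 bottom layer arrays (squares), in linear units on a log axis, with the range over arrays of the brightest unspiked control probe set in grey. Of the a-specific genes only MFA1 in the bottom layer lies clear of the grey band on all 3 arrays of a group, and the 4 alpha-specific genes lie above it on every array.

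The 10 pathway genes moved in both directions. In the biofilm the mucin gene MSB2, the adaptor gene STE50 and, on 1 of its probe sets, the mucin gene HKR1 were higher than in the bottom layer, and the genes for the membrane anchor Opy2, the kinases Ste11 and Ste7 and, on 1 of its probe sets, the MAP kinase Fus3 were lower. Signals were compared as log2(signal + 16) with limma over 4242 genes, after the dimmest 25% of the 5656 genes had been left out, and a gene was called at a Benjamini-Hochberg adjusted p below 0.05. SHO1, STE20 and KSS1 fell in that dimmest part, so 7 of the 10 were tested, of which 3 were called higher and 4 lower, and their median log2 fold change was -0.80. That median is the value of FUS3 on its kept probe set. The 3 genes left out all had positive log2 fold changes (2.24, 0.83 and 0.47), so the negative median holds for the 7 tested only. Over all genes tested 38% were called higher and 24.4% lower, 62.5% together, with a median of 0.17, and the 2 groups did not overlap for 68% of them, so a call by itself sets no gene apart here. With every gene kept, 56.4% of 5656 were called, 33% higher and 23.4% lower, and 9 of the 10 pathway genes were called, 5 higher and 4 lower. The 3 biofilm arrays did not overlap the 3 bottom layer arrays for any of the 10 genes, which was also so for 63.4% of the 5656.

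**Figure D2:**
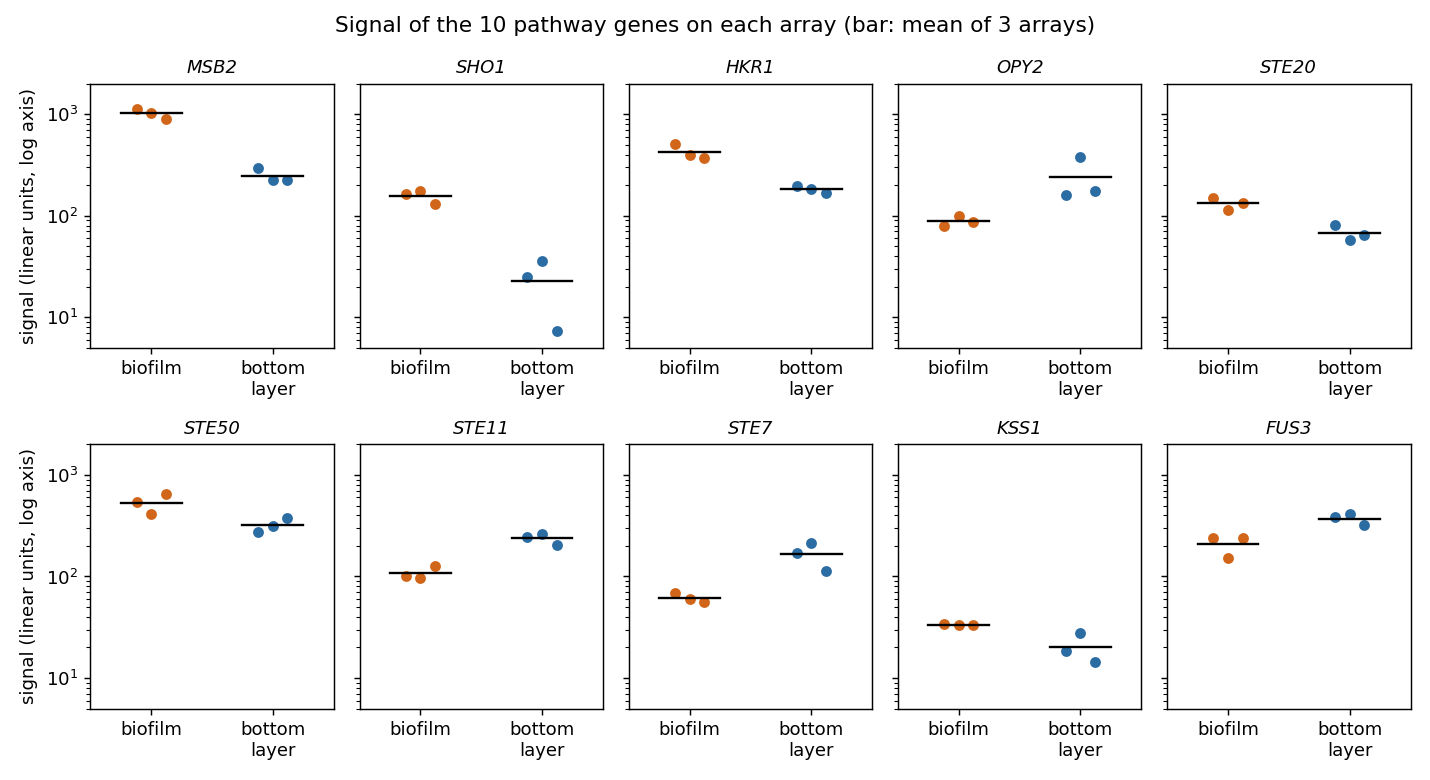
Signal of each of the 10 pathway genes on the 3 biofilm arrays (left in each panel) and the 3 bottom layer arrays (right), in linear units on a log axis, with bars at group means. In every panel the groups do not overlap, with MSB2, SHO1, HKR1, STE20, STE50 and KSS1 above in the biofilm and OPY2, STE11, STE7 and FUS3 below.

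At the head of the pathway, MSB2 (YGR014W) encodes the mucin that senses the state of the cell surface. Its signal was 1119, 1039 and 896 units in the biofilm, against 294, 222 and 223 in the bottom layer. Each biofilm array was thus above every bottom layer array, and the fit gave a 3.96-fold higher level (log2 fold change 1.98, 95% interval 1.60 to 2.36, adjusted p = 5.59e-06). HKR1 (YDR420W), the mucin known mainly from the HOG pathway, gave 510, 398 and 368 units in the biofilm, against 199, 184 and 168 in the bottom layer, a 2.20-fold higher level (log2 fold change 1.14, 95% interval 0.74 to 1.53, adjusted p = 0.000287). The rise of MSB2 exceeded that of HKR1 by 0.85 on the log2 scale, and by 2.09 with the probe sets of each gene averaged. In an exact two-sided permutation test of that difference over the 20 labellings of the arrays p = 0.1, the smallest value that this test can give with 3 arrays against 3, so it cannot go under 0.05. The arrays' own differences between both genes had an SD of 0.12 for the biofilm, against 0.14 for the bottom layer, smaller than 0.85. HKR1 has 7 further probe sets, all dimmer, and none of them was called higher in the biofilm. Of these, 1 was called lower (log2 fold change -1.01, adjusted p = 0.00747). Its signals were at or below the brightest unspiked control on all 3 biofilm arrays and on 2 of the 3 bottom layer arrays. The next brightest gave 80.3 ± 25.4 units in the biofilm, against 70.2 ± 9.61 in the bottom layer (log2 fold change 0.13, adjusted p = 0.672), so the rise of HKR1 rests on 1 probe set of 8. With all 8 averaged and every gene kept, HKR1 did not pass and its sign changed (log2 fold change -0.11, 95% interval -0.52 to 0.30, adjusted p = 0.645). Several of the 8 were at or below the brightest unspiked control on all biofilm arrays. Averages over them, the 2.09 included, are limited by this.

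SHO1 (YER118C), the membrane adaptor that docks Ste11 and the HOG kinase kinase Pbs2, also differed widely. It gave 165, 176 and 131 units in the biofilm, against 24.8, 35.6 and 7.30 in the bottom layer. All 3 biofilm arrays were well above background, while bottom layer replicate 3 was below its brightest unspiked control. SHO1 was among the genes left out as dim; in the fit with every gene kept its log2 fold change was 2.24 (95% interval 1.62 to 2.86, adjusted p = 7.97e-05). That value moved with the pseudocount, to 2.99 with 1 and 1.36 with 64, since the bottom layer signals were so low. OPY2 (YPR075C), the single-pass membrane protein that anchors Ste50, went the other way. Its signal was 78.4, 100.2 and 87.6 units in the biofilm, against 159, 380 and 175 in the bottom layer, where replicate 2 was far above the other two. The level was 2.27-fold lower in the biofilm (log2 fold change -1.18, 95% interval -1.81 to -0.55, adjusted p = 0.00406).

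Between membrane and cascade stand STE20 and STE50. STE20 (YHL007C), the p21-activated kinase that phosphorylates Ste11, gave 149, 115 and 134 units in the biofilm, against 81.1, 57.7 and 64.3 in the bottom layer. It too was left out as dim, and with every gene kept its log2 fold change was 0.83 (95% interval 0.41 to 1.25, adjusted p = 0.00370). STE50 (YCL032W), the adaptor that binds Ste11, gave 542, 415 and 644 units in the biofilm, against 272, 313 and 376 in the bottom layer. The groups were close, with the lowest biofilm array only a little above the highest bottom layer array, and the level was 1.62-fold higher in the biofilm (log2 fold change 0.70, 95% interval 0.26 to 1.14, adjusted p = 0.0107). The call of STE50 did not hold without the array of biofilm replicate 3 (log2 fold change 0.55, adjusted p = 0.0508), under quantile normalization (0.52, adjusted p = 0.0552) or with arrays centred on their medians (0.49, adjusted p = 0.0613).

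STE11 and STE7, the kinases between Ste20 and the MAP kinases, were lower. STE11 (YLR362W), the MAP kinase kinase kinase that the filamentous growth, pheromone and HOG pathways share, gave 102, 96.1 and 126 units in the biofilm, against 247, 260 and 205 in the bottom layer. Its level was 2.05-fold lower in the biofilm (log2 fold change -1.03, 95% interval -1.43 to -0.64, adjusted p = 0.000526). STE7 (YDL159W), the MAP kinase kinase, gave 68.7, 59.4 and 56.1 units in the biofilm, against 169, 214 and 114 in the bottom layer, and was 2.29-fold lower (log2 fold change -1.20, 95% interval -1.68 to -0.72, adjusted p = 0.000715). For both genes every biofilm array was below every bottom layer array, and STE7 had the most negative change of the 7 tested pathway genes on this scale, next to OPY2.

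The MAP kinases themselves were measured less surely. KSS1 (YGR040W), the MAP kinase of filamentous growth, gave 33.9, 33.4 and 33.1 units in the biofilm, against 18.3, 27.9 and 14.5 in the bottom layer. These signals were close to background, with bottom layer replicate 3 below its brightest unspiked control. KSS1 was left out as dim, and with every gene kept it did not pass (log2 fold change 0.47, 95% interval 0.037 to 0.90, adjusted p = 0.0618). As for SHO1, the size of this change depends on the pseudocount, since the signals were so low. FUS3 (YBL016W), the MAP kinase of the pheromone pathway, gave 240, 151 and 238 units in the biofilm, against 383, 413 and 319 in the bottom layer on the probe set kept for it, a 1.74-fold lower level (log2 fold change -0.80, 95% interval -1.27 to -0.34, adjusted p = 0.00648). A second FUS3 probe set of similar brightness did not show this. It gave 318, 193 and 317 units in the biofilm, against 181, 233 and 447 in the bottom layer, so that the groups overlapped (log2 fold change 0.012, adjusted p = 0.978 in a fit over all single-gene probe sets). The third was below the brightest unspiked control on all 6 arrays, and with the probe sets averaged FUS3 was not called (log2 fold change -0.43, adjusted p = 0.0947). On the kept probe sets KSS1 exceeded FUS3 in change by 1.27 on the log2 scale, with an SD over arrays of 0.35 for the biofilm, against 0.13 for the bottom layer, and p = 0.1 in the exact two-sided permutation test, again the smallest value that test can give. With FUS3 at 0.012 on its second probe set, the size of this difference depends on the FUS3 probe set used.

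**Figure D3:**
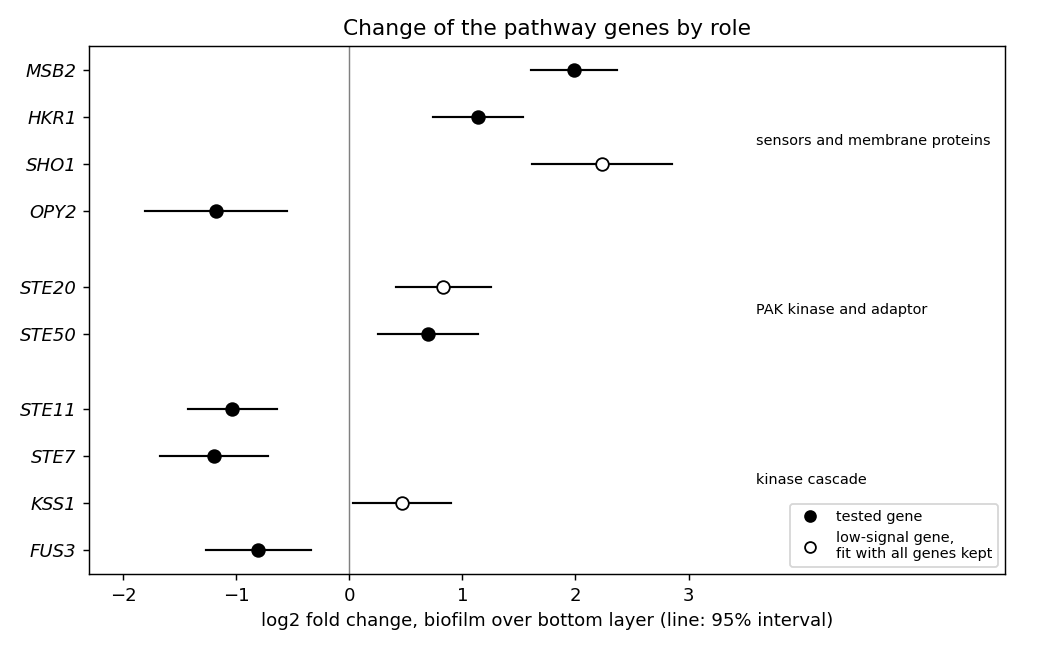
Log2 fold change of each pathway gene, biofilm over bottom layer, with its 95% interval from limma; filled circles are the 7 genes tested, open circles the 3 low-signal genes in the fit with every gene kept. MSB2, HKR1, SHO1, STE20 and STE50 lie to the right of 0, OPY2, STE11, STE7 and FUS3 to the left, and the interval of KSS1 starts at 0.037.

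**Figure D4:**
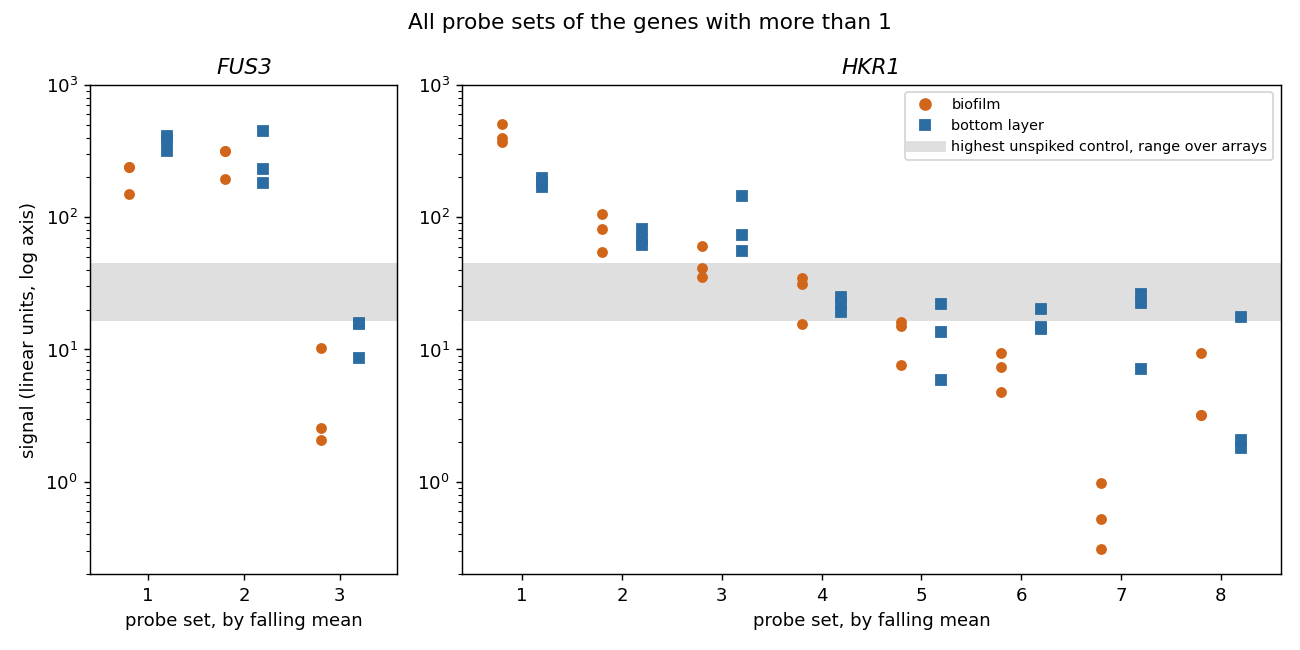
Signal of the 3 probe sets of FUS3 and the 8 of HKR1 on the biofilm arrays (circles) and the bottom layer arrays (squares), in linear units on a log axis, ordered by mean, with the range over arrays of the brightest unspiked control in grey. The biofilm and the bottom layer separate on the first FUS3 probe set and overlap on the second, and the higher biofilm signal of HKR1 is seen on its first probe set.

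Centring each array on its median shifted the whole scale: the median change over all genes was then -0.035, against 0.17 on the deposited scale, and 49.0% of called genes were higher in the biofilm, against 60.9%. The tested pathway genes kept their directions, with MSB2 at 1.77, HKR1 at 0.93, OPY2 at -1.39, STE11 at -1.24, STE7 at -1.41 and FUS3 at -1.01. By the smallest root mean square difference of centred log2 signals over the 6 arrays, the genes most like MSB2 were ARD1 (0.075), MRP13 (0.075) and ALD5 (0.091), and those most like STE7 were CIN10 (0.085), PEX10 (0.086) and YLR177W (0.089). These values describe likeness over arrays that all the genes share.

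At the nuclear end of the pathway, TEC1 fell and the other regulators did not pass or were too dim to test. TEC1, the transcription factor that directs Ste12 to filamentation genes, was at 460 ± 53.5 units in the biofilm, against 1471 ± 422 in the bottom layer (log2 fold change -1.61, adjusted p = 5.61e-05). STE12, the transcription factor common to mating and filamentation, gave 93.8, 92.0 and 79.0 units in the biofilm, against 61.3, 99.3 and 81.5 in the bottom layer, so that the groups overlapped (adjusted p = 0.622 with every gene kept). The repressors of Ste12, DIG1 and DIG2, overlapped as well, at 129 ± 20.9 and 103 ± 12.4 units in the biofilm, against 135 ± 27.6 and 90.0 ± 13.2 in the bottom layer. DIG1 did not pass (log2 fold change -0.056, adjusted p = 0.821), and its sign changed under 4 alternatives.

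Among 10 genes reported as targets of the pathway, MSB2, TEC1, KSS1 and STE12 among them, 7 were tested. In the biofilm 4 were higher and 1 was lower, 2 missed the threshold, and the median log2 fold change was 0.83. The shares higher and lower were 57.1% and 14.3%, against 38% and 24.4% over all genes tested. CLN1, a G1 cyclin gene, was at 281 ± 24.1 units in the biofilm, against 58.7 ± 21.0 in the bottom layer (log2 fold change 2.02, adjusted p = 1.86e-05). SVS1, a cell surface gene, was at 1004 ± 125 in the biofilm, against 487 ± 52.6 in the bottom layer (log2 fold change 1.02, adjusted p = 0.000264). NFG1 (YLR042C), a gene known as a reporter of the filamentation pathway, was higher with a log2 fold change of 0.83 (adjusted p = 0.0105). FLO11 did not pass (log2 fold change -0.33, adjusted p = 0.283), and PGU1, the pectinase gene, was dim, at 52.0, 35.0 and 59.6 units in the biofilm, against 55.0, 91.1 and 105 in the bottom layer. The targets thus went in both directions.

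Of 13 genes for polarity and other inputs above Ste20, 9 were tested. In the biofilm 5 were higher and 1 was lower, 3 missed the threshold, and the median was 0.68. That is 55.6% higher and 11.1% lower, against 38% and 24.4% over all genes tested. YPS1, the surface protease that cleaves Msb2, was at 999 ± 149 units in the biofilm, against 3481 ± 797 in the bottom layer (log2 fold change -1.77, adjusted p = 2.11e-05), opposite in direction to MSB2. RAS2, a GTPase above both this pathway and protein kinase A, was at 2438 ± 341 in the biofilm, against 1101 ± 146 in the bottom layer (log2 fold change 1.13, adjusted p = 0.000155). RSR1, the bud site GTPase, was at 592 ± 125 in the biofilm, against 143 ± 62.3 in the bottom layer (log2 fold change 2.00, adjusted p = 0.000207), and CLA4, a p21-activated kinase related to Ste20, at 187 ± 26.2 in the biofilm, against 87.4 ± 15.9 in the bottom layer (log2 fold change 0.97, adjusted p = 0.00101). CDC42 did not pass, although its groups did not overlap (log2 fold change 0.36, adjusted p = 0.0722).

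Genes of the pheromone and osmosensing branches moved both ways. In the pheromone branch 10 of 20 genes were tested. Those left out as dim include STE2, MFA1, MFA2 and other a-specific genes. In the biofilm 3 were higher and 4 lower, 3 missed the threshold, and the median was -0.23. These counts are 30% and 40% of the genes tested, against 38% and 24.4% over all genes. STE4, the G protein beta subunit, was at 1348 ± 219 units in the biofilm, against 453 ± 64.3 in the bottom layer (log2 fold change 1.54, adjusted p = 2.80e-05), and AFR1, of the mating projection, at 360 ± 40.0 in the biofilm, against 140 ± 6.74 in the bottom layer (1.26, adjusted p = 8.27e-05). Lower were FIG2, a mating adhesin, at 95.6 ± 19.2 in the biofilm, against 389 ± 20.4 in the bottom layer (-1.88, adjusted p = 1.23e-05), FUS1, a cell fusion gene raised by pheromone, at 64.5 ± 4.16 in the biofilm, against 205 ± 15.5 in the bottom layer (-1.46, adjusted p = 2.55e-05), and STE5, the scaffold that holds Ste11, Ste7 and Fus3, at 113 ± 22.1 in the biofilm, against 187 ± 19.7 in the bottom layer (-0.66, adjusted p = 0.0104).

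In the osmosensing branch 10 of 13 genes were tested. In the biofilm 5 were higher and 2 lower, 3 missed the threshold, and the median was 0.59. As shares this is 50% and 20%, against 38% and 24.4% over all genes tested. AHK1, a scaffold of the Hkr1 part of that branch, was at 172 ± 17.1 units in the biofilm, against 53.9 ± 4.79 in the bottom layer (log2 fold change 1.43, adjusted p = 3.22e-05). SLN1, the histidine kinase osmosensor, was at 289 ± 48.2 in the biofilm, against 111 ± 8.26 in the bottom layer (1.26, adjusted p = 0.000146), and SSK22, a kinase parallel to Ste11, at 224 ± 23.3 in the biofilm, against 75.6 ± 27.8 in the bottom layer (1.43, adjusted p = 0.000253). The MAP kinase gene HOG1 was lower, at 500.3 ± 40.0 units in the biofilm, against 1093 ± 211 in the bottom layer (-1.09, adjusted p = 0.000312). Of 11 tested genes listed as targets of HOG under osmotic stress, 3 were higher (27.3%), 6 lower (54.5%) and 2 did not pass. Over all genes tested the shares were 38% and 24.4%. The 3 higher were GPP2, STL1 and GPD1, at log2 fold changes of 1.77, 1.39 and 0.39 (adjusted p = 2.46e-05, 0.000151 and 0.0435). Among the lower, SIP18, GRE1, CTT1 and CHA1, the last better known for serine breakdown, were at -4.50, -2.81, -2.15 and -4.15. SIP18 and GRE1 are also among the stationary phase markers above. So is HSP12, another of the 6 lower targets (log2 fold change -0.90, adjusted p = 0.0120).

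Genes that switch MAP kinases off, and the separate cell wall integrity cascade, also held changes in both directions. Of 6 phosphatase genes tested out of 8, PTC2 was higher (log2 fold change 1.11, adjusted p = 0.00159) with 1 other, SDP1 was lower (-0.81, adjusted p = 0.00330) and 3 did not pass. Of 11 genes tested out of 16 in the cell wall integrity cascade, 2 were higher and 2 lower, 7 missed the threshold, and the median was -0.14. Higher and lower shares were 33.3% and 16.7% for the phosphatases and 18.2% and 18.2% for this cascade. Over all genes tested they were 38% and 24.4%. Its MAP kinase gene SLT2 was higher, at 608 ± 119 units in the biofilm, against 277 ± 32.6 in the bottom layer (1.08, adjusted p = 0.000579), and so was BCK1, its MAP kinase kinase kinase (0.87, adjusted p = 0.00132). MKK2, a MAP kinase kinase of that cascade, was lower (-0.66, adjusted p = 0.0138), a call that did not hold without the array of biofilm replicate 3 (log2 fold change -0.51, adjusted p = 0.0564) or with the ACT1 ratio as a covariate (-0.50, adjusted p = 0.114).

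**Figure D5:**
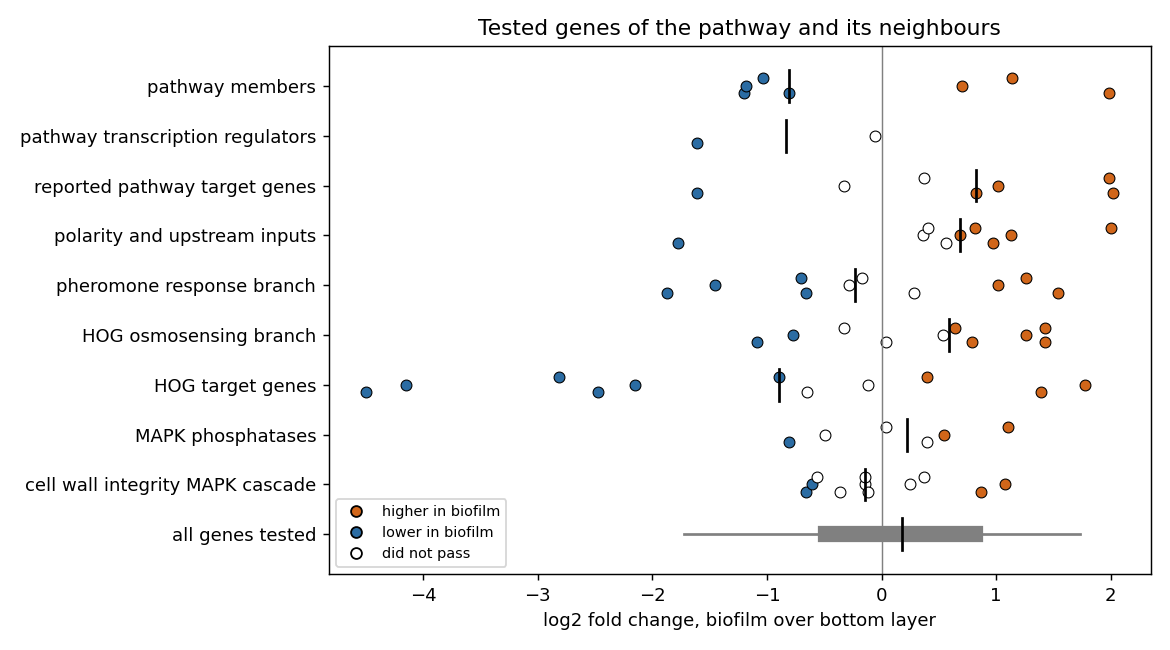
Log2 fold change, biofilm over bottom layer, of the tested genes of each list (1 circle per gene, coloured by call, vertical bar at the list's median), and of all 4242 genes tested, as a thick bar for the 25th to 75th percentile and a line for the 5th to 95th. Of the lists plotted, all but that of the transcription regulators hold tested genes on both sides of 0, and the HOG targets range from -4.50 to 1.77.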

How the data were processed

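RNA from 3 biofilm samples and 3 bottom layer samples was biotin-labelled as aRNA for Affymetrix yeast arrays, per the labels' protocols. The authors deposited a linear intensity for each of 9335 probe sets on each array, 60 of them controls. Per the submitters' processing notes, MAS5 was used for 2 of the 6 samples; the tool for the other 4, and any version, background setting or detection call, is not stated. All arrays had been scaled to one trimmed mean, which can shift a whole sample. The number of arrays limits the precision, with a median SE of 0.18 for log2 fold changes.

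Probe sets were named by gene identifier through the platform table and a RefSeq table of assembly R64, used for names only: 6504 pair with 1 gene, 328 with several and 2443 are not listed. Of a gene's probe sets the one with the highest mean log2(signal + 16) was kept, and the dimmest 25% of the 5656 genes were not tested. Background is the brightest of 19 mouse and Bacillus control probe sets taken as unspiked. The test was limma 3.58.1 under R 4.3.3 (lmFit, eBayes with trend, two-sided, Benjamini-Hochberg over 4242 genes), or exact permutation for single values. Only the limma fit was also run on simulated data, with independent noise and far fewer changed genes than here. That run does not check the calls in these data. Named are the 10 genes, the 4 transcription regulators, and the 3 genes most alike to the members with the largest rise and fall. Of each other list, up to 4 called genes were named by smallest p, only from those whose groups do not overlap. Outside that rule, STE2, MFA1, MFA2, NFG1, FLO11, PGU1, CDC42, GPP2, STL1, GPD1, SNZ1, SNO1, SPG4 and HSP12 were named after their values were seen. The members, lists and alternatives were chosen with earlier results of these data known. Same-numbered biofilm and bottom layer arrays had deviations from their group means that correlated at -0.013, -0.093 and 0.16 across genes, so the numbers were not taken as pairs. Plots were made in matplotlib 3.10.9 (Python 3.11.15).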

Additional observations from a re-analysis of the deposited data

How the results depend on the processing

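Under 12 alternative settings and 6 that leave out 1 array each, the number of the 10 pathway genes called did not stay the same everywhere. With every gene kept 5 were called higher in place of 3, since SHO1 and STE20 were then tested, and without the dimmest 50% of genes 1 was called lower in place of 4, since OPY2, STE11 and STE7 were no longer tested. Leaving out 1 array gave 2 to 3 genes higher and 4 lower, with 1450 to 1592 genes higher and 926 to 1080 lower over all genes, against 1613 and 1037 with all arrays. The difference of change stayed positive, at 1.07 to 1.37 for KSS1 minus FUS3 and 0.78 to 0.92 for MSB2 minus HKR1 without 1 array, and at 0.90 to 1.64 and 0.83 to 2.09 under the other settings run for them. No setting took the second FUS3 probe set by itself, on which FUS3 was at 0.012. The ranges for KSS1 minus FUS3 therefore do not cover that choice. The calls of MSB2, OPY2, STE11 and STE7 held under every setting in which these genes were tested, and that of HKR1 held wherever its kept probe set was used. With its probe sets averaged HKR1 was too dim to be tested, and with every gene kept as well, a setting chosen after seeing the data, HKR1 was at -0.11 and not called. The calls of STE50 and FUS3 were lost as given above. With the replicate number as a replicate block 1590 genes were higher and 1046 lower, the pathway counts stayed at 3 and 4, and no named pathway call changed; only array 3 of each group correlated best with its own number. The ACT1 ratio as a covariate gave 1445 genes higher and 1040 lower, and a filter by the linear mean, an alternative chosen after seeing the data, gave 1635 and 1057. DIG1 changed sign with array weights (0.18), with the ACT1 ratio (0.13) and with 1 array left out, from -0.19 without bottom replicate 1 to 0.070 without biofilm replicate 3 and 0.072 without bottom replicate 3. On its 7 other probe sets HKR1 was at 0.13, -0.72, 0.15, -0.015, -0.48, -1.01 and -0.070, the last 4 from probe sets at or below the brightest unspiked control on all biofilm arrays, and FUS3 was at 0.012 and, below that control on all arrays, -0.50. The cause of these changes was not tested. For KSS1, and for SHO1 in the bottom layer, signal near background limits what can be measured.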
